A study of Mus musculus with 20 samples.

Results

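Untreated macrophages without the signalling adapter MyD88 were compared with untreated wild-type macrophages in 8 of the 20 arrays of the study, 4 of each genotype. The 8 were taken by their labels: the MyD88-KO arrays of 1, 4, 8 and 16 h, which carry untreated RNA in the Cy3 channel, and the wild-type arrays of the same hours. Each 2-colour array also held RNA of LPS-treated cells of the same genotype and hour in Cy5, which is not described here. The MyD88-KO group carried the MyD88 -/- KO genotype, and a double-KO group with the MyD88/Trif -/- double KO genotype is used further on. Arrays labelled TRIF-KO (TRIF -/- KO) of the same hours also entered the fit and are set beside the others for some genes. Per the labels all groups were C57BL/6 mice matched for age and gender, although sex-linked transcripts given further on differed between the groups. Their bone marrow macrophages were grown from femur and tibia for 6 days with M-CSF-conditioned medium of an L929 line, replated, washed, and then left in serum-free medium for the hours stated.

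MyD88 is the adapter that most Toll-like receptors and the receptors of the IL-1 family bind when they meet their ligand. It recruits the Irak kinases, which pass the signal through Traf6 to NF-kB and to MAP kinases, and thereby to cytokine, chemokine and acute phase genes. Macrophages are a main source of these products, and a resting culture can also respond to products of its own cells.

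Each genotype had 1 array per hour, and separate animals or cultures behind the arrays are not stated in the labels, so p-values measure only the spread between these samples. Levels are normalized log2 intensities of the brightest probe of a gene, which can be set against each other between samples but not between genes. Where 4 values follow each other they are those of 1, 4, 8 and 16 h in that order. In bulk RNA, fewer cells of a type and less RNA per cell cannot be told apart. Between 60.2% and 69.6% of 43020 spots were well above background on the 8 arrays, and 20483 genes were tested. The wild-type arrays and the MyD88-KO array of 1 h were scanned on one day, the MyD88-KO arrays of 4, 8 and 16 h on another, and no slide held both genotypes, so that within a slide genotype cannot be compared and at the later hours genotype and scan day cannot be told apart. All 11 macrophage markers measured were well above background on all 8 arrays. The log2 of their summed intensity ranged from 19.69 to 20.29 in MyD88-KO and from 19.77 to 20.15 in wild-type cells. Such a sum adds intensities across genes, and the brightest markers weigh most in it.

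The targeted gene came first. The Myd88 probe (mm9, chr9:119245322-119245381) read 14.21, 14.09, 14.21 and 13.90 in MyD88-KO cells, against 14.24, 14.43, 14.73 and 14.82 in wild-type cells. It was bright on every array, and the difference of -0.45 ± 0.14 (SE) did not pass the test (limma, Benjamini-Hochberg adjusted p = 0.062). Where the probe lies relative to the deleted part of the gene was not annotated here, so it does not check the label. Ticam1, the gene of the other Tlr4 adapter TRIF, read 10.47, 10.60, 10.41 and 10.38 in MyD88-KO cells, against 10.53, 10.62, 10.68 and 10.95 in wild-type cells (adjusted p = 0.18). It averaged 10.89 ± 0.25 (SD, n = 4) in the arrays labelled TRIF-KO, near the 10.69 ± 0.18 of wild-type cells, and 7.28 ± 0.05 in double-KO cells. Where the Ticam1 probe lies relative to the altered part of that gene was not annotated here either. On this probe the arrays labelled TRIF-KO did not show the low level of double-KO cells, so it did not bear out the TRIF-KO label.

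Most of the LPS receptor and its proximal machinery did not pass the test. Tlr4, the LPS receptor, differed by 0.03, its coreceptors Cd14 and Ly96 by -0.05 and -0.23, the bridging adapter Tirap by 0.27, the kinases Irak1, Irak2 and Irak4 by -0.10, -0.31 and -0.24, and the ubiquitin ligase Traf6 by 0.18. The members that fell were Irak3, Tlr2, Tlr1, Ikbke and Irf7, 5 of 47 genes of the pathway, while 2 rose. Irak3, a brake on Irak signalling, read 11.02, 10.76, 10.88 and 10.87 in MyD88-KO cells, against 11.38, 11.26, 11.70 and 11.94 in wild-type cells (-0.69 ± 0.11, adjusted p = 0.0031). Every MyD88-KO value of Irak3 lay below every wild-type value. Tlr2, the receptor of bacterial lipopeptides, fell by 0.38, and Tlr1, its partner, fell by 0.80 (adjusted p = 0.029 and 0.0073, limma).

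Over all genes, 2086 of 20483 passed the test at an adjusted p under 0.05, which is 10.2%. Of these, 1350 were higher in MyD88-KO cells (6.59%) and 736 lower (3.59%), and 2055 had the same sign at all 4 hours. The higher genes were more numerous but moved less, with a median of 0.52 against -0.66 for the lower ones, and 79 were at least 2-fold higher while 162 were at least 2-fold lower. The median over all genes tested was 0.01. At 2 h, outside the fit and with untreated MyD88-KO RNA in Cy5, 1528 of 2083 genes that passed and were measured had the same sign. In 982 of the 2086 the MyD88-KO and wild-type values did not overlap at all, against 2163 of all genes (10.6%), which include the 982. The 2086 were selected by a test on the same arrays, so their lack of overlap is in part fixed by that selection. The counts rest on time point as a block: without it 171 genes passed, and without the 8 h arrays of all genotypes 119 passed. A fixed block for scan day left 334. One for slide left 30, and under it 137 of the 2086 had the opposite sign. With the arrays of 1 and 4 h alone, an alternative chosen after seeing the data, 27 passed. Taking the scanner's own processed signal split the calls into 626 higher and 496 lower.

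Among the genes named below, 9 passed in each of the 27 alternative settings run: Ankrd29, Camk2b, Cndp2, 0610042G04Rik, Marco and Fpr2, all lower in MyD88-KO, and Gdf3, S100a9 and 2010315B03Rik, all higher. The plot of levels by array shows 12 of the leading genes.

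**Figure D1:**
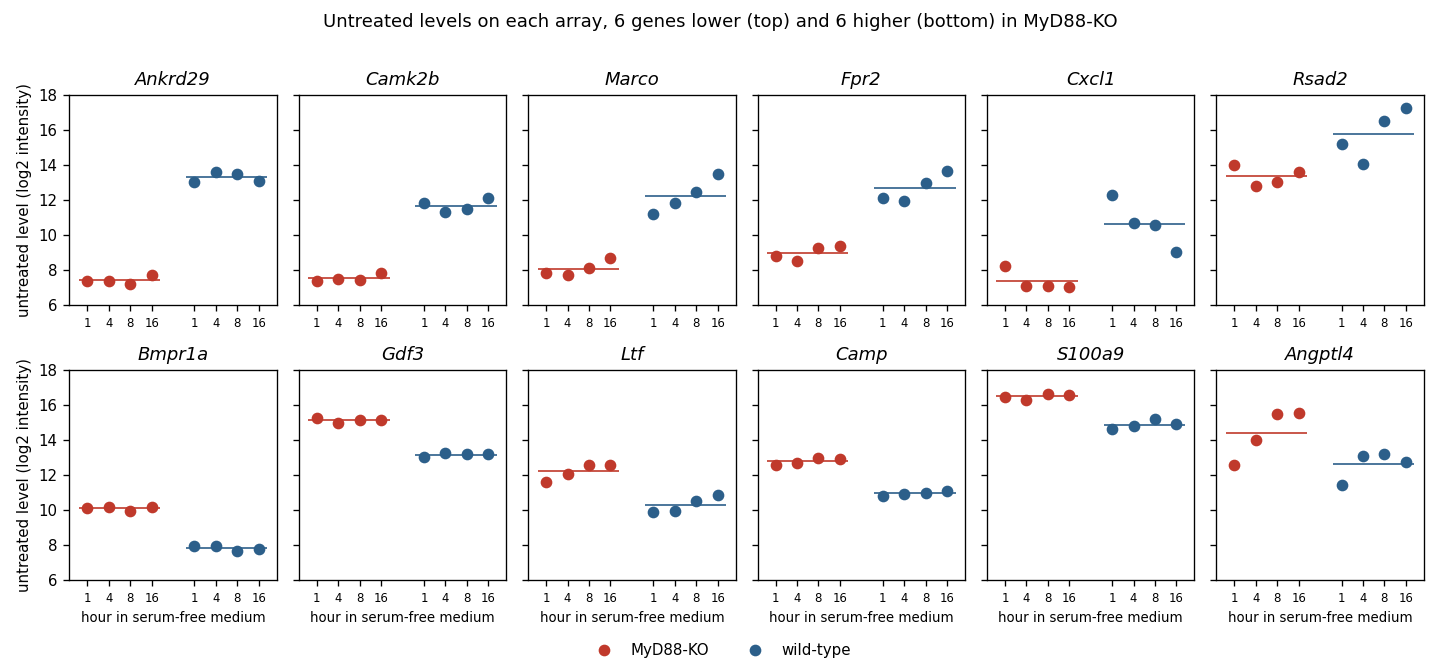
Normalized log2 intensity of 12 genes in untreated cells, with MyD88-KO on the left and wild-type on the right of each panel. Each array is 1 point, coloured by genotype and placed in order of hour, with a line at the mean of 4 arrays. In every panel the MyD88-KO mean lies away from the wild-type mean, with a difference of -5.88 for Ankrd29 and 2.27 for Bmpr1a on the log2 scale.

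In 4 genes the signal was far lower in MyD88-KO cells at every hour. Ankrd29, an ankyrin repeat protein of little studied function, read 7.38, 7.36, 7.24 and 7.75 in MyD88-KO cells, against 13.04, 13.61, 13.52 and 13.07 in wild-type cells (-5.88 ± 0.17, adjusted p = 7.1e-10). Camk2b, a calcium-dependent kinase subunit, read 7.40, 7.53, 7.43 and 7.87, against 11.83, 11.31, 11.49 and 12.11 in wild-type cells (-4.13 ± 0.12, adjusted p = 7.1e-10). On these probes the groups of both genes stood far apart, with no intermediate array. Another probe of Camk2b differed by only -0.45, and another of Ankrd29 by -4.10. Cndp2, a cytosolic dipeptidase, read 11.35, 11.71, 11.44 and 11.45 in MyD88-KO cells, against 14.32, 14.16, 14.33 and 15.02 in wild-type cells (-2.97 ± 0.16, adjusted p = 5.1e-07). The transcript 0610042G04Rik was not well above background on any MyD88-KO array, at 6.70 to 6.77, against 10.43 to 11.15 in wild-type cells, and was at least 16.9-fold lower (adjusted p = 6e-08). These genes did not follow one pattern over the other knockouts. Ankrd29 averaged 7.43 ± 0.22 (SD, n = 4) in MyD88-KO, 7.74 ± 0.20 in double-KO and 7.17 ± 0.25 in the arrays labelled TRIF-KO, so that wild-type alone was high at 13.31 ± 0.29. 0610042G04Rik averaged 6.75 ± 0.03 in MyD88-KO, 10.77 ± 0.22 in double-KO and 10.99 ± 0.62 in the arrays labelled TRIF-KO, so that MyD88-KO alone was low.

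Scavenger, lectin and phagocytic receptors formed the next group. Of 33 genes of this list tested, which also holds the enzyme Aoah, 12 were lower in MyD88-KO cells and 2 higher, with a median of -0.43. The lower ones numbered 4 without the replicate block, 5 with scan day and 2 with slide as a fixed block. Marco, a scavenger receptor that binds bacteria and particles, read 7.84, 7.75, 8.12 and 8.68 in MyD88-KO cells, against 11.20, 11.83, 12.48 and 13.52 in wild-type cells (-4.16 ± 0.28, adjusted p = 6e-06). Marco was higher at each later hour in wild-type cells, and its highest MyD88-KO array lay below the lowest wild-type array. Fpr1 and Fpr2 are receptors of formylated bacterial peptides. Fpr2 ranged from 8.50 to 9.41 in MyD88-KO cells, against 11.93 to 13.66 in wild-type cells (-3.68 ± 0.25, adjusted p = 6e-06). Fpr1 read 8.13, 8.23, 8.26 and 8.55, against 10.95, 11.64, 13.45 and 13.76 in wild-type cells (-4.16 ± 0.48, adjusted p = 0.0005). Neither receptor overlapped between the groups. Aoah, the lipase that deacylates LPS, fell by 1.41 ± 0.17, and Axl, a receptor for dying cells, fell by 0.83 ± 0.12 (adjusted p = 0.00067 and 0.0019, limma). The 2 that rose were Clec7a, the beta-glucan receptor, by 0.83, and Mertk, another receptor for dying cells, by 0.40 (adjusted p = 0.0035 and 0.031). Both were chosen after their values were seen. Klra2, a lectin of the Ly49 family outside the list, averaged 8.57 ± 0.44 (SD, n = 4) in MyD88-KO cells, against 10.85 ± 0.87 in wild-type cells (-2.28 ± 0.29, adjusted p = 0.0011).

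Interferon-stimulated genes, which type I interferon induces through factors such as Irf9, were lower as a group. Of 52 tested, 41 were lower in MyD88-KO cells and 0 higher, with a median of -1.07. Their median difference was -0.91, -0.64, -1.16 and -1.44 at 1, 4, 8 and 16 h. The gap was thus present in untreated cells at each hour, and its median was widest at 16 h. Irf9 itself differed by -0.01 (adjusted p = 0.96), and Ifnb1, which encodes interferon beta, by -1.36 without passing (adjusted p = 0.088); both were chosen after their values were seen. Without the replicate block 0 of the 52 passed (limma), without the 8 h arrays of all genotypes 6 did, and with the arrays of 1 and 4 h alone 0 did at a median of -0.75. With scan day as a fixed block 8 were lower, at a median of -0.87, and with slide as a fixed block 2 were.

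**Figure D2:**
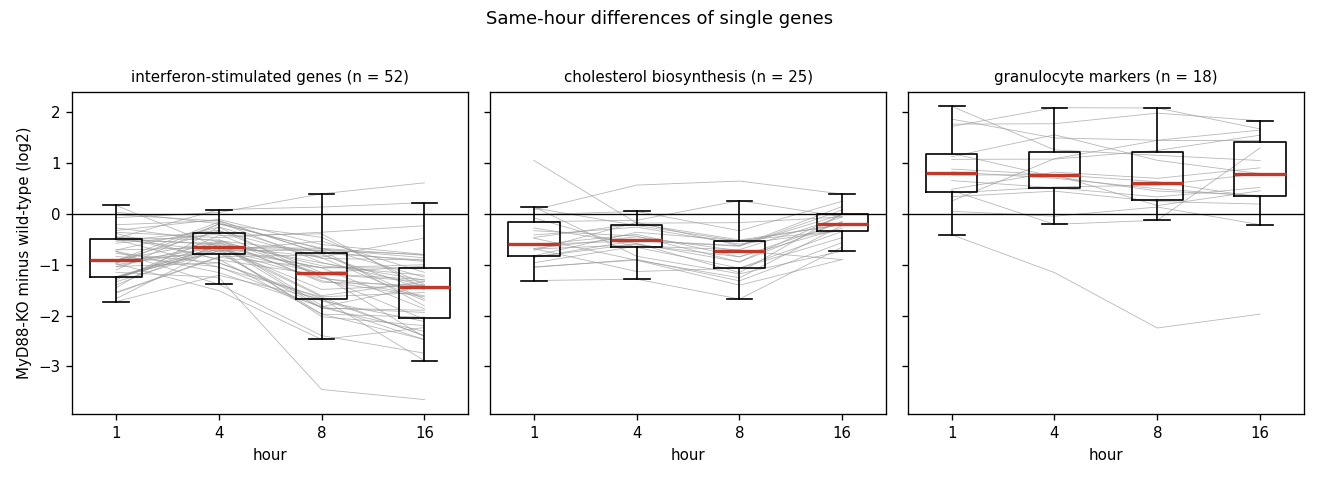
Difference of MyD88-KO minus wild-type (log2) at 1, 4, 8 and 16 h for 52 interferon-stimulated genes, 25 cholesterol synthesis genes and 18 granulocyte markers, 1 grey line per gene, with boxes of the median and quartiles and whiskers of 1.5 interquartile ranges. The interferon medians lie below 0 at every hour, with the lowest, -1.44, at 16 h, and the granulocyte medians lie above 0 at every hour, while Ly6g lies below 0 throughout.

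Promoters of the interferon-stimulated Rsad2 and Trim30a, the chemokines Cxcl10 and Cxcl1 and the acute phase gene Saa3 are shown because each holds one of 2 sequence elements that were counted over all promoters. RefSeq promoter windows (GRCm38.p6, 250 bases before to 50 after a transcription start) were matched for 12595 of the 20483 genes tested. Both strands were searched for GAAA, any 2 bases and GAAA again, the core of the element that interferon-activated factors bind, and for GGGA, any base and TTTCC, a form of the kappa B site bound by NF-kB. Capitals mark the match, and a match on the opposite strand reads as the reverse complement. Rsad2 (chr12:26456533-26456602, minus strand), Trim30a (chr7:104465194-104465259, minus strand), Cxcl10 (chr5:92349063-92349132, minus strand) and Saa3 (chr7:46715762-46715831, minus strand) hold the first element. Cxcl1 (chr5:90891144-90891213, plus strand) holds the second.
Rsad2: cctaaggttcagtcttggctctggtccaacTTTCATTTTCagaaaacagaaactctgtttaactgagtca
Trim30a: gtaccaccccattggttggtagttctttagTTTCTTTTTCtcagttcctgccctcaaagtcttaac
Cxcl10: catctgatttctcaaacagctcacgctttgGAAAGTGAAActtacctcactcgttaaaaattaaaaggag
Saa3: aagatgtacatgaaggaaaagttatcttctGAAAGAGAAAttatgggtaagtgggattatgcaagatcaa
Cxcl1: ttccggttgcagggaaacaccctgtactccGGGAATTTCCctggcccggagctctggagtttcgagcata
The interferon element was found in 3.44% of all 32851 RefSeq windows and in 4.01% of the tested genes with a window. It was in 64 of 446 genes that were lower in MyD88-KO cells (14.3%), in 37 of 112 that were lower by at least 1 on the log2 scale (33%), and in 16 of 965 that were higher (1.66%). Of the 505 tested genes with the element, the others did not pass in either direction. The interferon-stimulated list held it in 22 of 39 windows and the granulocyte markers in 0 of 16. The kappa B form was rarer, at 0.411% of all windows, 0.548% of tested genes, 6 of 446 lower genes and 8 of 965 higher ones. It was in 3 of 15 chemokine windows and 3 of 19 cytokine windows. A match describes these letters and not a bound site.

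Among the antiviral genes, Rsad2, which blocks viral replication at membranes, read 14.03, 12.82, 13.06 and 13.61 in MyD88-KO cells, against 15.18, 14.07, 16.51 and 17.27 in wild-type cells (-2.38 ± 0.42, adjusted p = 0.0059). The gap of Rsad2 was wider at 8 and 16 h than at 1 and 4 h, a change of -2.35 ± 0.34 that did not pass over all genes (adjusted p = 0.12). Ifit2, an inhibitor of viral translation, read 12.75, 12.40, 13.61 and 14.04 in MyD88-KO cells, against 14.47, 13.61, 15.28 and 16.44 in wild-type cells (-1.75 ± 0.19, adjusted p = 0.00033). Trim30a read 13.90, 13.16, 14.13 and 14.70, against 15.45, 14.02, 15.19 and 15.70 in wild-type cells (-1.12 ± 0.12, adjusted p = 0.00033). In Rsad2, Ifit2 and Trim30a the MyD88-KO value lay below the wild-type value of the same hour each time. The ranges over all hours overlapped in Ifit2 and Trim30a, and in Rsad2 they were apart by a small margin. Irf7, the factor that amplifies interferon production, fell by 1.17 ± 0.19, Usp18, which limits interferon receptor signalling, by 1.18 ± 0.14, the RNA sensor Ddx58 by 0.78 ± 0.10, and Ifitm3, which blocks viral entry, by 0.78 ± 0.10 (adjusted p = 0.0042, 0.0007, 0.00098 and 0.0014, limma). Genes of the class I antigen pathway, many of them interferon-inducible, had 5 of 18 lower and 0 higher, with a median of -0.42. They included the transactivator Nlrc5 (-0.77, with another probe at -0.10) and the proteasome activator subunit Psme2 (-0.78). Of 10 class II genes 0 passed in either direction.

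The chemokine Cxcl10, which interferons and NF-kB both induce, read 14.95, 11.71, 12.01 and 12.44 in MyD88-KO cells, against 15.07, 12.73, 17.23 and 17.24 in wild-type cells (-2.79 ± 0.76, adjusted p = 0.038). Cxcl10 passed in 10 of the 27 alternative settings, with differences of -3.71 to -0.034, and its other probe differed by -0.17. The genotypes were close at 1 h and far apart at 8 and 16 h, although the change between 1 h and later hours, -3.56 ± 1.38, did not pass over all genes (adjusted p = 0.27). Cxcl1, which draws neutrophils, read 8.22, 7.13, 7.12 and 7.02 in MyD88-KO cells, against 12.30, 10.71, 10.56 and 9.02 in wild-type cells (-3.28 ± 0.37, adjusted p = 0.0004). Cxcl1 was low on every MyD88-KO array and declined with the hours in wild-type cells without reaching the MyD88-KO values. Of 22 chemokines tested, 6 were lower and 0 higher, with a median of -0.16. The monocyte attractants Ccl2, Ccl7 and Ccl12 fell, with differences of -1.80, -2.17 and -2.05 (adjusted p = 0.037, 0.038 and 0.026, limma). They passed in 11, 10 and 16 of the 27 alternative settings. The MyD88-KO array of 1 h read 13.82 for Ccl2 and 10.81 for Ccl7, against wild-type means over the hours of 14.09 and 10.84. At 2 h, with MyD88-KO in Cy5, the differences of Ccl2, Ccl7 and Ccl12 were -0.06, -0.34 and -1.19. Cxcl16 fell by 0.55.

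Inflammatory cytokines were lower in 9 of 26 and higher in 1, with a median of -0.84. Il1b, the precursor of the pyrogen IL-1 beta, read 10.83, 10.36, 10.91 and 11.62 in MyD88-KO cells, against 12.67, 13.62, 13.40 and 13.41 in wild-type cells (-2.34 ± 0.57, adjusted p = 0.025). Its groups did not overlap at these hours. At 2 h, outside the fit, Il1b read 13.1 in MyD88-KO cells in Cy5, against 12.6 in wild-type cells in Cy3. It passed in 12 of the 27 alternative settings, with differences of -2.755 to 0.749. Il1a was not well above background on any MyD88-KO array, at 6.47 to 6.78, against 7.49, 10.11, 9.92 and 7.85 in wild-type cells, and was at least 4.08-fold lower (adjusted p = 0.044). The regulatory cytokine Il10 fell (adjusted p = 0.024), and the TNF superfamily ligands Tnfsf9, Tnfsf10 and Tnfsf15 fell by 0.86, 1.73 and 1.58. Tnf, chosen after its values were seen, fell by 1.69 ± 0.45 (adjusted p = 0.033), and Il6, chosen in the same way, differed by -1.33 without passing (adjusted p = 0.058). The one cytokine that rose was Gdf3, described further on. With the scanner-processed signal 6 of the 26 were lower, and without the 8 h arrays of all genotypes 0 were.

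Feedback genes of the NF-kB pathway that passed were all lower, 7 of 36, with a median of -0.17. Nfkbiz, a nuclear co-regulator of secondary inflammatory genes, read 8.62, 9.12, 9.34 and 9.20 in MyD88-KO cells, against 10.16, 10.29, 10.51 and 11.24 in wild-type cells (-1.48 ± 0.16, adjusted p = 0.00033). The list of Toll-like receptor regulators, which shares members with this one, had 7 of 25 lower and 2 higher. Zc3h12a, an RNase that degrades cytokine mRNAs, fell by 1.59 ± 0.26, and the phosphatase Dusp2 by 1.11 ± 0.26. Nfkbiz, Zc3h12a and Dusp2 had no overlap between the groups. Socs3, which dampens cytokine signals through Stat3, read 14.38, 13.52, 12.58 and 11.01 in MyD88-KO cells, against 14.85, 15.85, 15.53 and 15.29 in wild-type cells (-2.51 ± 0.55, adjusted p = 0.015). Socs3 was lower at each later hour in MyD88-KO cells and stayed within a narrow range in wild-type cells. The change between 1 h and later hours, -2.71 ± 0.70, did not pass over all genes (adjusted p = 0.13).

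The acute phase and antimicrobial list split, with 6 of 17 higher and 2 lower in MyD88-KO cells. The lower ones were Saa3 and Cp, and Saa1 outside the list moved with them. Saa3, a serum amyloid A of macrophages, read 10.32, 10.69, 11.38 and 11.90 in MyD88-KO cells, against 12.25, 14.35, 14.39 and 14.65 in wild-type cells (-2.83 ± 0.48, adjusted p = 0.0045). Saa1 read 9.04, 8.67, 9.17 and 9.75, against 10.59, 13.23, 14.87 and 13.44 in wild-type cells (-3.88 ± 0.91, adjusted p = 0.021). Both serum amyloids were lowest at 1 h among the wild-type arrays, and no MyD88-KO array of Saa1 or Saa3 reached the lowest wild-type array. Cp, the copper oxidase ceruloplasmin, read 7.97, 8.02, 8.56 and 8.56, against 9.38, 10.20, 11.51 and 12.40 in wild-type cells (-2.60 ± 0.39, adjusted p = 0.0025). C3, the central complement component, read 14.49, 14.78, 14.38 and 13.98, against 15.90, 15.93, 16.50 and 17.20 in wild-type cells (-1.97 ± 0.37, adjusted p = 0.008). Of 17 complement genes 3 were lower and 2 higher, among them the inhibitor Serping1 by 0.81.

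Products of activated macrophages followed in smaller numbers. Acod1, which makes itaconate, fell by 1.68 ± 0.31 and Gch1, which makes the cofactor of nitric oxide synthase, by 0.71 ± 0.20 (adjusted p = 0.0069 and 0.039, limma), and Ass1, which recycles citrulline to arginine, fell as well (adjusted p = 0.032). Ptgs1, the constitutive prostaglandin synthase, was higher by 0.98 ± 0.22 (adjusted p = 0.016). Of 22 costimulatory and activation molecules 5 were lower, among them Cd69 by 1.78 and Cd38 by 1.14, and the 1 that rose was Havcr2, an inhibitory receptor, by 0.64. The inflammasome sensor Nlrp3 fell (adjusted p = 0.01), as did the caspase Casp4 by 0.94 and the death inhibitor Cflar by 0.80 (another of its probes differed by 0.081), which were the 3 of 24 survival and death genes that passed.

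**Figure D3:**
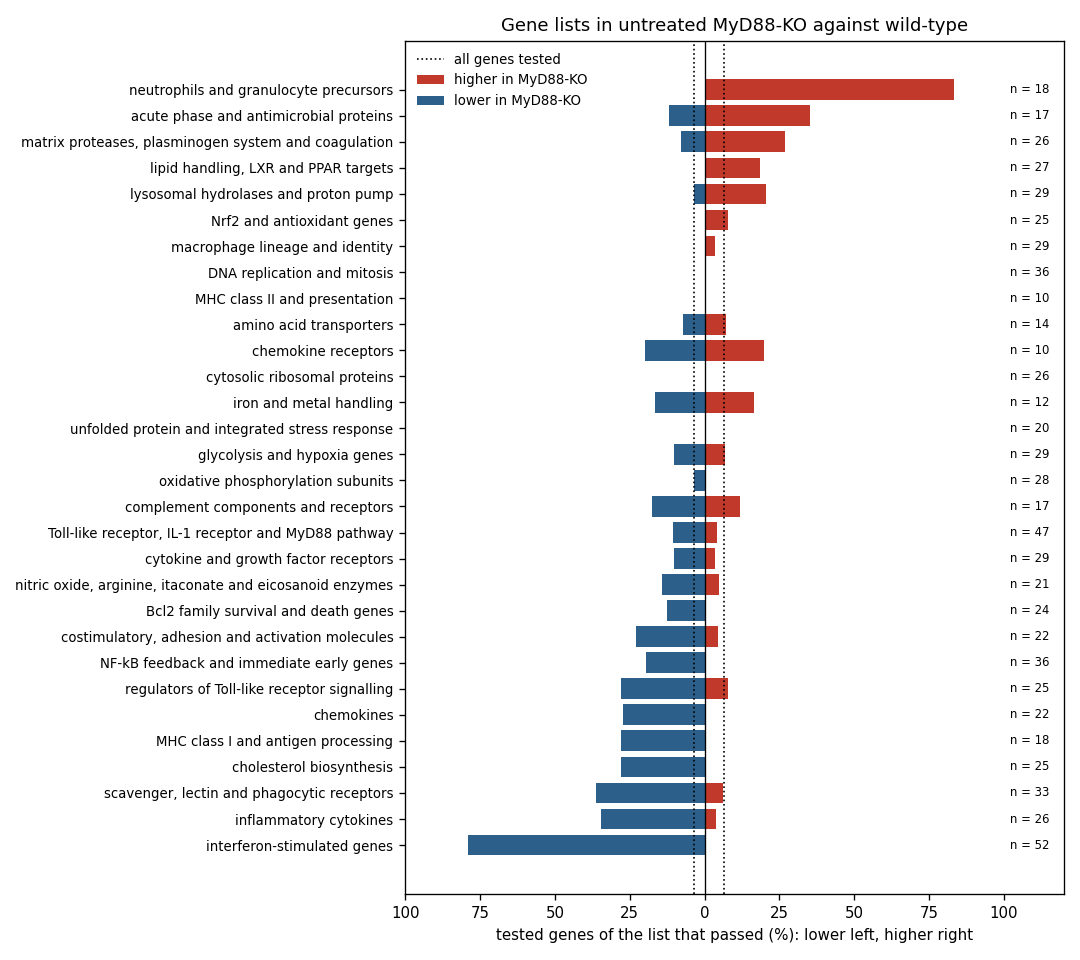
Share of the tested genes of each list that were lower (blue, to the left) or higher (red, to the right) in MyD88-KO than in wild-type cells, with the number tested at the right and dotted lines at the shares over all genes, 3.59% lower and 6.59% higher. The granulocyte markers (15 of 18 higher) and the interferon-stimulated genes (41 of 52 lower) stand at the ends.

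Granule and calprotectin genes of granulocytes were higher. Of 18 markers of neutrophils and their precursors 15 were higher in MyD88-KO cells and 0 lower, with a median of 0.65. The log2 of their summed intensity ranged from 17.10 to 17.34 in MyD88-KO and from 15.83 to 16.09 in wild-type cells. Bright markers such as S100a9 weigh most in that sum. S100a9, a subunit of calprotectin, read 16.45, 16.27, 16.61 and 16.56 in MyD88-KO cells, against 14.58, 14.78, 15.16 and 14.91 in wild-type cells (1.61 ± 0.10, adjusted p = 2.1e-06). Its partner S100a8 read 13.93, 13.39, 13.62 and 13.40, against 11.82, 12.13, 12.46 and 12.35 in wild-type cells (1.39 ± 0.17, adjusted p = 0.00078). Camp, the cathelicidin precursor, read 12.55, 12.65, 12.95 and 12.92, against 10.78, 10.88, 10.96 and 11.09 in wild-type cells (1.84 ± 0.10, adjusted p = 4.8e-07). Ltf, the iron-binding lactoferrin, followed the same pattern, with 11.61, 12.02, 12.58 and 12.53 in MyD88-KO cells, against 9.89, 9.93, 10.50 and 10.86 in wild-type cells (1.89 ± 0.10, adjusted p = 4.8e-07). No array of one genotype reached the other in these 4 genes, and 14 of the 18 markers were well above background on all 8 arrays. Cxcr2, the neutrophil chemokine receptor, rose by 0.51 and Ngp by 1.06. The 3 markers that did not pass, named after their values were seen, were Elane at 0.36, Prtn3 at -0.02 and Ly6g, a surface antigen of mature neutrophils, at -1.44 (adjusted p = 0.079). Camp, Ltf and Ngp lie on chromosome 9 within 10 Mb of Myd88, and the others do not. Whether granulocytes or precursors in the cultures had a part in these levels was not tested. Without the 4 h or the 8 h arrays of all genotypes 6 of the 18 passed, with no replicate block or with scan day as a fixed block 8 did, with the arrays of 1 and 4 h alone 3 did, and with slide as a fixed block 1 did.

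Among markers of other cells a smaller share passed. Osteoclast markers were higher in 4 of 8, with a median of 0.63, near the 0.65 of the granulocyte markers. Their log2 summed intensity was 14.58 to 14.93 in MyD88-KO and 14.10 to 14.39 in wild-type cells, without overlap. T cell markers were higher in 3 of 8, with 14.96 to 15.71 in MyD88-KO and 14.48 to 15.13 in wild-type cells. The T cell markers that rose, named after their values were seen, were Cd2, Cd28 and Thy1, while the receptor subunit Cd3e differed by -0.06. The sums of monocyte markers overlapped, at 15.98 to 17.19 in MyD88-KO and 16.65 to 17.26 in wild-type cells, as did those of B cell, dendritic cell, erythroid and stromal markers. The sums of natural killer and eosinophil markers did not overlap and were lower in MyD88-KO cells, at 9.67 to 9.76 against 9.83 to 10.01 and at 10.50 to 10.65 against 10.75 to 11.35. Calls among the other marker lists were 2 higher and 1 lower of 11 for macrophages, 1 of 6 lower for eosinophils (Ccr3), 1 of 4 lower for erythroid cells, 1 higher and 1 lower of 5 endothelial and of 7 stromal markers, and 1 higher of 3 mast cell and of 4 megakaryocyte markers, with 0 for B, dendritic and natural killer cells and for monocytes. The part of such cells in any gene group was not tested.

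Other genes that rose included receptors and secreted proteins. Bmpr1a, a receptor of bone morphogenetic proteins, read 10.11, 10.16, 9.95 and 10.13 in MyD88-KO cells, against 7.95, 7.92, 7.62 and 7.77 in wild-type cells (2.27 ± 0.10, adjusted p = 6e-08). Gdf3, a ligand of the TGF-beta superfamily, read 15.24, 14.95, 15.10 and 15.11, against 13.03, 13.21, 13.17 and 13.16 in wild-type cells (1.96 ± 0.11, adjusted p = 5.1e-07). Each stayed nearly constant over the hours in both genotypes. Itga9, an integrin subunit, read 9.11, 9.27, 9.18 and 10.79 in MyD88-KO cells, against 7.29, 7.37, 7.61 and 8.47 in wild-type cells (1.90 ± 0.13, adjusted p = 6.9e-06). Dkk2, a modulator of Wnt signalling, read 9.59, 9.80, 9.89 and 10.15, against 8.10, 8.98, 8.32 and 7.79 in wild-type cells (1.56 ± 0.21, adjusted p = 0.0015). Angptl4, a secreted inhibitor of lipoprotein lipase, read 12.55, 13.97, 15.47 and 15.52, against 11.42, 13.04, 13.17 and 12.75 in wild-type cells (1.78 ± 0.30, adjusted p = 0.0044). Angptl4 was higher at each later hour in MyD88-KO cells, and its 1 h value there lay below 3 of the wild-type values. The transcript 2010315B03Rik was higher by 2.16 ± 0.19 and Erdr1 by 1.72 ± 0.14. Erdr1 averaged 14.52 ± 0.06 (SD, n = 4) in MyD88-KO, 12.20 ± 0.36 in double-KO, 14.29 ± 0.28 in the arrays labelled TRIF-KO and 12.81 ± 0.08 in wild-type cells. Of 6 genes that passed and were detected on all MyD88-KO arrays and on no wild-type array, Mmrn2 and Zfp69 had the highest bounds, each at least 1.47-fold higher.

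Metabolic lists moved in part. Of 25 genes of cholesterol synthesis and uptake 7 were lower in MyD88-KO cells and 0 higher, with a median of -0.50, and medians of -0.60, -0.52, -0.73 and -0.21 at the 4 hours. The 16 h median was the nearest to 0. Idi1, an isomerase of the pathway, read 12.12, 12.35, 12.63 and 13.61 in MyD88-KO cells, against 13.43, 13.64, 14.31 and 14.26 in wild-type cells (-1.23 ± 0.26, adjusted p = 0.013). Fdps, Hmgcs1 and Dhcr7, enzymes of the same route, fell by 0.96, 0.84 and 0.69. With scan day as a fixed block 0 of the 25 passed at a median of -0.52, and with slide as a fixed block the median was 0.087. Lipid handling genes were higher in 5 of 27 and lower in 0, among them Plin2, which coats lipid droplets, by 0.64, the triglyceride enzyme Dgat1 by 0.47 and the lysosomal lipase Lipa by 0.68. Lysosomal genes were higher in 6 of 29 and lower in 1: the pump subunit Atp6v0d2 rose by 1.16 ± 0.17 and the protease Ctsk by 0.68 ± 0.15, and Ctsc, which activates granule proteases, fell by 0.84 ± 0.11. Atp6v0d2 and Ctsk are also osteoclast markers.

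Genes of matrix turnover and coagulation were higher in 7 of 26 and lower in 2. Timp2, an inhibitor of matrix proteases, rose by 0.86 ± 0.16 in a fit that lacks the wild-type 4 h value, and coagulation factor F5 by 0.98 ± 0.12, while the membrane protease Mmp14 fell by 1.38 ± 0.18 (adjusted p = 0.011, 0.00078 and 0.0012, limma). With the arrays of 1 and 4 h alone 0 of the 26 passed. Of 12 iron and metal genes, the iron exporter Slc40a1 rose by 1.22 ± 0.28 and the metallothionein Mt1 by 0.84 ± 0.18 (its other probe differed by -0.024), and the importers Slc11a2 and Tfrc fell by 0.88 and 0.63. The hexokinase Hk2 fell by 0.74 and the phosphofructokinase Pfkl by 0.61, and 2 of 29 glycolysis and hypoxia genes rose. Of 25 Nrf2 and antioxidant genes 2 rose and 0 fell, with a median of 0.28, and 1 of 28 respiratory chain genes fell. Of 14 amino acid transporters 1 rose and 1 fell, and of 29 cytokine and growth factor receptors 1 rose and 3 fell. Of 29 genes of macrophage lineage 1 rose and 0 fell. Lists with 0 calls in either direction were 26 ribosomal protein genes, 36 of DNA replication and mitosis and 20 of the unfolded protein response, and their lowest adjusted p-values belonged to Rpl3 (0.11), Ccnd1 (0.11) and Ppp1r15a (0.079).

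Chemokine receptors moved both ways, with 2 of 10 higher and 2 lower. Ccr3, the eotaxin receptor, read 7.74, 8.22, 8.70 and 8.89 in MyD88-KO cells, against 9.04, 9.57, 10.24 and 10.62 in wild-type cells (-1.48 ± 0.12, adjusted p = 2.1e-05). Cx3cr1, the fractalkine receptor, fell by 0.68 ± 0.19 (adjusted p = 0.043, limma). Ccr3 and Cx3cr1 both lie on chromosome 9 near Myd88.

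The arrays of 1 h hold both genotypes from a single scan day, and the difference there was tested on 1 array against 1, with the spread of the other arrays. At 1 h 473 of 20396 genes passed (2.32%), 245 higher (1.2%) and 228 lower (1.12%) in MyD88-KO cells. The count was 27 with the 8 arrays alone, 56 with no replicate block, 126 with the processed signal and 214 with slide as a random block. Of the 2086 genes that passed over all hours, 185 stood at 1 h by this test, 110 higher and 75 lower, and 2066 had the same sign at 1 h. By size alone, 234 of the 2086 already differed by at least 1 on the log2 scale at 1 h. Medians at 1, 4, 8 and 16 h were 0.50, 0.47, 0.55 and 0.57 for the genes that were higher and -0.59, -0.52, -0.77 and -0.72 for those that were lower. The mean that selected the 2086 genes includes the 1 h difference, so their sign and size at 1 h are in part fixed by that selection. Of the genes at least 2-fold different over all hours, 29 higher and 20 lower stood at 1 h.

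**Figure D4:**
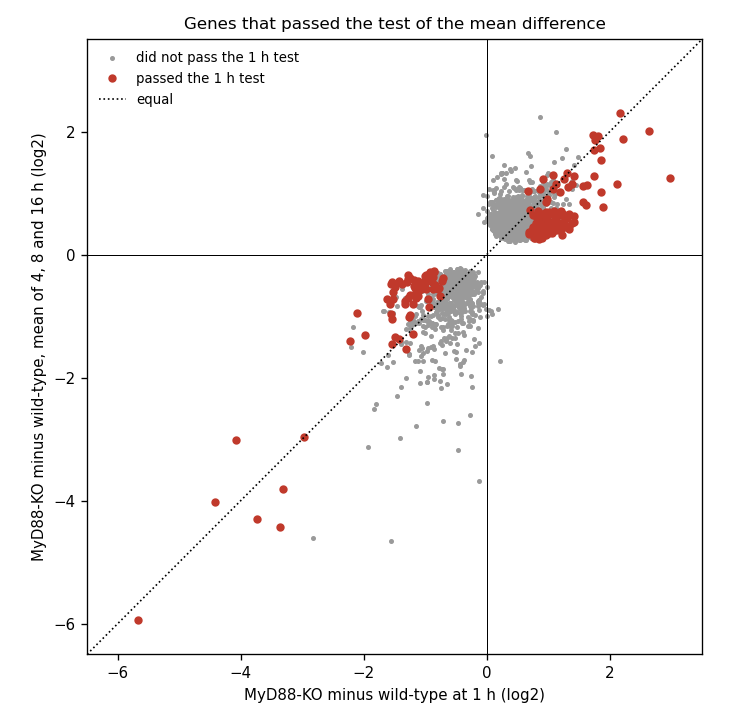
Each point is 1 of the 2086 genes that passed over all hours, with the difference of MyD88-KO minus wild-type (log2) at 1 h on the horizontal axis and the mean difference at 4, 8 and 16 h on the vertical axis, in red for the 185 that passed at 1 h and in grey for the others. Ankrd29 lies at the lower left with -5.66 at 1 h, and Cxcl10 lies near 0 on the horizontal axis, at -0.12, and low on the vertical axis.

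The genes that stood at 1 h included Camk2b (-4.42, adjusted p = 2.2e-05), Ankrd29 (-5.66, adjusted p = 0.00011), Marco (-3.36, adjusted p = 0.0025), Cndp2 (-2.97, adjusted p = 0.0031), Fpr2 (-3.31, adjusted p = 0.014) and Cxcl1 (-4.08, adjusted p = 0.016). Higher genes that stood at 1 h were Gdf3 (2.22, adjusted p = 0.00066), Bmpr1a (2.16, adjusted p = 0.0025), S100a9 (1.86, adjusted p = 0.0027), Ltf (1.72, adjusted p = 0.004) and Camp (1.77, adjusted p = 0.0041). By list, 6 of the 18 granulocyte markers and 5 of the 52 interferon-stimulated genes stood at 1 h. Of the 33 genes of the scavenger receptor list 3 did, of the 22 chemokines 2, and of the 25 cholesterol genes 0. Over all genes, 185 of 20483 passed both at 1 h and over all hours. At so low a share, 0 of 25 says little about the cholesterol list. The interferon-stimulated genes that did so were Trim30a, Oasl2, Irf7, Ddx58 and Oas3, with Oasl2 and Oas3 named after their values were seen. Genes with large later differences that did not pass at 1 h were Cxcl10 (-0.12), Socs3 (-0.47), Saa1 (-1.55), Fpr1 (-2.82) and Angptl4 (1.12). A difference that misses the threshold on 1 array against 1 is not shown to be absent.

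The wild-type array of 1 h stood apart from the other wild-type arrays for part of the genes. It lay outside their range by at least 1 on the log2 scale for 73 of the 473 genes that passed at 1 h (15.4%), against 433 of all 20483 (2.11%). Among the 288 genes that passed at 1 h but not over all hours the share was 22.6%, and among the 185 that passed both it was 4.32%. The MyD88-KO array of 1 h lay outside its group in that way for 10 of the 473 (2.11%), against 567 of all 20483 (2.77%). The part of these arrays in the 1 h calls was not tested.

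Few genes passed a test of change in the difference over the hours. Later hours minus 1 h passed for 14 of 20396 genes (0.0686%), 6 higher and 8 lower (limma), with 3008 at an unadjusted p under 0.05. The changes of greatest size were those of Gfra4 and Syt10. Gfra4, a receptor subunit of the GDNF family, read 16.43, 17.05, 17.09 and 17.26 in MyD88-KO cells, against 11.55, 16.76, 16.76 and 16.62 in wild-type cells. Syt10, a synaptotagmin, read 13.35, 14.30, 14.70 and 14.10, against 8.88, 13.39, 13.61 and 13.48 in wild-type cells. Wild-type at 1 h was the low value among these 8 arrays in both genes. The wild-type array of 2 h, which is outside the fit because the untreated MyD88-KO RNA of that hour was in Cy5, lay between 1 h and the later hours, at 14.35 for Gfra4 and 10.61 for Syt10. Scan day of the MyD88-KO arrays changes between 1 h and later hours too, so hour and scan day cannot be told apart in this test. The difference at 8 and 16 h minus that at 1 and 4 h passed for 1 of 20472 genes (0.00488%), with 1731 at an unadjusted p under 0.05. That gene was Enpp4, a membrane phosphodiesterase, which read 11.40, 10.64, 11.32 and 11.23 in MyD88-KO cells, against 12.35, 11.68, 13.76 and 13.72 in wild-type cells, a change of -1.47 ± 0.14 (adjusted p = 0.028).

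Genes around the targeted locus were counted by distance. Within 10 Mb of the Myd88 probe on chromosome 9, 28 of 167 genes tested passed, 20 higher and 8 lower in MyD88-KO cells, which is 16.8%. The share was 28.8% of 52 genes within 2.5 Mb and 9.92% of 716 genes beyond 20 Mb, against 10.2% of 19268 genes on other chromosomes. By the test at 1 h, 10 of 166 genes passed within 10 Mb (6.02%), 10 of 714 beyond 20 Mb (1.40%) and 444 of 19185 on other chromosomes (2.31%). Genes that passed both at 1 h and over all hours numbered 7 within 10 Mb, 0 beyond 20 Mb and 173 on other chromosomes. These are descriptions, with no test of position.

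**Figure D5:**
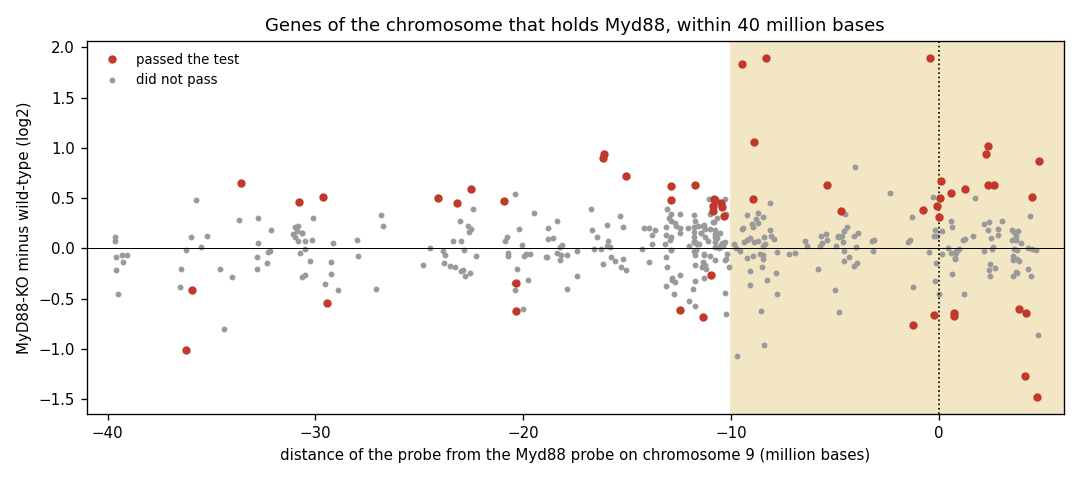
Difference of MyD88-KO minus wild-type (log2) for the genes tested on chromosome 9, by distance of the probe from the Myd88 probe in Mb, in red for genes that passed and grey for others, with the 10 Mb on either side shaded. Itga9 (1.90), Ltf (1.89) and Camp (1.84) are the high points of the shaded part, and Ccr3 (-1.48) and Lars2 (-1.27) the low ones.

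Besides Camp, Ltf, Ngp, Itga9 and the chemokine receptors, the region held Lars2, the mitochondrial leucyl-tRNA synthetase. Lars2 read 9.38, 9.52, 9.64 and 9.60 in MyD88-KO cells, against 10.57, 10.67, 10.90 and 11.08 in wild-type cells (-1.27 ± 0.14, adjusted p = 0.00033). Its groups did not overlap, and it stood at 1 h (adjusted p = 0.017). Vipr1, a receptor of vasoactive intestinal peptide, rose by 1.02 ± 0.21, the Golgi protein Gorasp1 by 0.55 ± 0.11 and the chemokine receptor Cxcr6 by 0.51 ± 0.12, and the LIM protein Limd1 fell by 0.64 ± 0.10 (adjusted p = 0.013, 0.011, 0.022 and 0.0034, limma).

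A comparison with double-KO cells, added after seeing the data, shows which of these levels were shared by the other group without MyD88. The MyD88-KO cells differed from double-KO cells in 1447 of 20483 genes (7.06%), 739 higher and 708 lower in MyD88-KO. The groups also differed in sex-linked transcripts: Xist averaged 10.42 in MyD88-KO, 6.39 in double-KO and 10.35 in wild-type cells, and Eif2s3y averaged 6.57, 14.18 and 6.50 in the same order. The arrays labelled TRIF-KO averaged 6.52 for Xist and 14.18 for Eif2s3y. These levels were alike in MyD88-KO and wild-type cells, and went against the label of matched gender for the double-KO and TRIF-KO groups. The part of sex in other genes was not tested, and both comparisons share the MyD88-KO arrays. All double-KO arrays were scanned on the day of the MyD88-KO arrays of 4, 8 and 16 h, and the double-KO array of 1 h shared their slide. Wild-type arrays were scanned on the other day. For levels shared by these knockouts and not by wild-type, loss of MyD88 and scan day cannot be told apart, except in MyD88-KO at 1 h.

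Several of the genes that were lower than in wild-type missed the threshold between the groups without MyD88. Marco averaged 8.10 ± 0.42 (SD, n = 4) in MyD88-KO cells and 8.54 ± 0.60 in double-KO cells, with a difference of -0.45 ± 0.28 (SE, adjusted p = 0.42), while wild-type averaged 12.26 ± 0.99. Cxcl1 differed by -0.01 ± 0.37 between MyD88-KO and double-KO, Rsad2 by 0.01 ± 0.42 and Fpr2 by 0.64 ± 0.25. A missed threshold does not show that the levels were equal. Others split the groups. Gdf3 averaged 15.10 ± 0.12 in MyD88-KO, 8.84 ± 0.11 in double-KO and 13.14 ± 0.08 in wild-type cells, and was thus above wild-type in one knockout and below it in the other. Bmpr1a averaged 10.09 ± 0.10 in MyD88-KO cells and 7.06 ± 0.06 in double-KO cells, and S100a9 averaged 16.47 ± 0.15 and 14.92 ± 0.35 in the same order, with wild-type at 14.86 ± 0.24. Of the 18 granulocyte markers 9 were above and 0 below their double-KO level in MyD88-KO cells, with a median of 0.44. Lars2 averaged 9.53 ± 0.11 in MyD88-KO cells and 11.10 ± 0.14 in double-KO cells, while Itga9, on the same stretch of chromosome 9, averaged 9.59 ± 0.81 and 9.38 ± 0.72.

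Several lists also differed between the groups without MyD88. Of 52 interferon-stimulated genes, 17 stood above and 0 below their double-KO level in MyD88-KO cells, with a median of 0.43, and of 17 acute phase genes 11 stood above and 0 below it, with a median of 1.06. Complement genes were higher in 10 of 17 and lower in 1, and NF-kB feedback genes were higher in 10 of 36 and lower in 1. Saa3 averaged 11.07 ± 0.71 in MyD88-KO, 8.13 ± 0.82 in double-KO and 13.91 ± 1.11 in wild-type cells, so that MyD88-KO lay between them. Aoah exceeded its double-KO level by 4.06 in MyD88-KO cells and Acod1 by 3.37 (adjusted p = 1.4e-08 and 2.1e-05, limma). Cholesterol genes had 0 of 25 passing in either direction between MyD88-KO and double-KO cells, with a median of -0.08.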

How the data were processed

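Untreated RNA was measured in Cy3 on 8 arrays, and 8 further arrays of double-KO and TRIF-KO cells entered the fit. Members, gene lists and tests were chosen with earlier results of these data known. The deposited scanner files give the mean intensity and median background intensity of each spot and channel, per the file headers, which name the software Agilent Feature Extraction (10.10.1.1) and the build mm9. The authors' processed intensities in the same files served as an alternative, and the LPS channel was used only in normalization.

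Background was corrected with normexp (offset 50) in limma 3.58.1 under R 4.3.3 (data.table version 1.17.8), control spots were left out, outlier spots were set to missing, and arrays were normalized by loess within and by quantiles of the mean log intensity between all 20 arrays. The Cy3 level after these steps still depends on the LPS channel of its array through loess; Cy3 alone was an alternative. A probe was kept if well above background on at least 4 of the 16 arrays of the fit, and the brightest kept probe stood for a gene. Of 39429 probes, 27234 were named by accession, 3576 by symbol and 565 by synonym from RefSeq, and 8054 kept the name of the file. Among genes that passed, 590 had other probes, of which 116 had one of opposite sign. A gene detected on all arrays of 1 group and none of the other is given as a bound, open to dye bias.

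Log2 levels were fitted with limma (genotype and time point), adjusted by Benjamini and Hochberg over all genes, with a threshold of 0.05. Crossed terms gave the 1 h difference and its changes. Same-numbered arrays share the hour per the labels, and their deviations from the group means correlated at 0.55, 0.52, 0.29 and 0.66 at 1, 4, 8 and 16 h, all over 0.1, so hour was kept as a replicate block. The 8 h arrays correlated more with another hour (0.48) than with each other. The scripts were tested on simulated data. Genes named were the pathway genes, the 15 with the largest difference in each direction among those with 1 sign at all hours and detected on all 8 arrays, the bounds, up to 5 per function list by adjusted p (1 where none passed), those that passed within 10 Mb of Myd88, and those with the largest 1 h difference or change; some genes of these are not reported here. Alternatives covered background, signal, filter, probe choice, arrays, blocks, and each array or hour left out. The number of arrays limits the precision.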

Additional observations from a re-analysis of the deposited data

Results flagged for a closer look

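In 4 arrays of a genotype, the array farthest out was compared with its nearest neighbour as a share of the group's range, for the genes named in the text. This share was above Dixon's critical value in 27 of 358 groups of 4. For unselected replicates chance gives about 1 in 20. The named genes include ones chosen because their difference changed between 1 h and later hours, and the 4 arrays of a group are different hours. The count can therefore not be set against that rate. The array of 1 h was the one apart in 16 wild-type and 7 MyD88-KO groups, and the MyD88-KO array of 16 h in 4.

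In MyD88-KO cells the array of 1 h stood apart for the chemokines Ccl2 (0.867), Ccl7 (0.92) and Cxcl1 (0.91), each highest there, and for Dgat1 (0.901), Erdr1 (0.872), Havcr2 (0.842) and Tirap (0.923). The array of 16 h stood apart for Itga9 (0.905), Nlrp3 (0.926), Mmp9 (0.864) and Acaa1a (0.864). Itga9 read 10.79 there, against a nearest value of 9.27.

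In wild-type cells the array of 1 h stood apart for Gfra4 (0.973), Syt10 (0.952), H2bfm (0.934), Iqsec3 (0.891), Rn18s (0.886), Saa3 (0.875), Il6st (0.867), ENSMUST00000165906 (0.859), Lipa (0.855), Erdr1 (0.849), TC1700876 (0.864) and Rmrp (0.842), which were low there. It also stood apart for Cxcl16 (0.885), Thbd (0.846), Gm8230 (0.839) and Hnrnpl (0.839), which were high there.

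The difference of MyD88-KO minus wild-type changed between 1 h and later hours, by limma with Benjamini-Hochberg adjustment, in 14 genes. The change was positive for A_55_P2052252 (2.61), Hnrnpl (2.35), Arf6 (2.21), Ywhaz (2.03), H1f0 (1.87) and Gm8230 (1.17). It was negative for Gfra4 (-4.46), Syt10 (-3.59), Iqsec3 (-3.48), H2bfm (-2.85), Ddx25 (-2.21), ENSMUST00000165906 (-1.61), H4c4 (-1.58) and A_55_P2080348 (-1.33). Between the early (1 and 4 h) and late (8 and 16 h) arrays it changed in Enpp4 (-1.47).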

How the results depend on the processing

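The count of 2086 genes was within 1.5 times that value without background correction (2063), with Cy3 alone (2057), with other filters (1824 to 2198), with the mean of probes (2037), with the 8 arrays alone (1671), with 19 arrays (2248) and with the 2 h arrays (2172). It fell to 1122 with the scanner-processed signal, 171 with no replicate block, 334 with scan day and 30 with slide as a fixed block (4265 at an unadjusted p under 0.05, limma), 658 with slide as a random block, and 27 with the arrays of 1 and 4 h alone, an alternative chosen after seeing the data. Leaving out arrays gave 119 to 3539: without a single array the lowest were 688 (wild-type 8 h), 765 (MyD88-KO 16 h), 846 (MyD88-KO 8 h), 1068 (wild-type 4 h) and 1126 (wild-type 1 h) and the highest 3539 (MyD88-KO 1 h), and without an hour of all genotypes 2980 (1 h), 807 (4 h), 119 (8 h) and 805 (16 h). With slide as a fixed block 137 of the 2086 had the opposite sign.

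At 1 h the count of 473 became 126 with the processed signal, 27 with the 8 arrays and their replicate block, 56 with no replicate block and 214 with slide as a random block. The count of 14 for later hours minus 1 h became 0, 5, 6 and 3 under the same settings, 56 with no filter and 29 with the mean of probes. The count of 1 for late minus early hours became 6 with the mean of probes, and 0 without background correction, with the processed signal, with the 8 arrays and with no replicate block. The comparison with double-KO cells (1447) gave 396 with no replicate block, and 764 to 2400 with 1 array left out; the lowest were without MyD88-KO 4 h (764), MyD88-KO 8 h (803), double-KO 8 h (805) and double-KO 4 h (919), and the highest without MyD88-KO 1 h.

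The acute phase median turned to -0.029 with scan day, -0.024 with slide fixed and -0.014 with slide random, and the cholesterol median to 0.087 with slide fixed. Gstm1 turned to -0.087 with the mean of probes, and with slide fixed Cx3cr1 turned to 0.12, Hmgcs1 to 0.13, Il1b to 0.75 and Nlrp3 to 0.027. The cause was not tested. Of 180 named genes, 64 kept direction and side of the threshold with no replicate block, 39 (of 179) with slide fixed, 118 with slide random and 145 with the processed signal, and 180 with the strict filter.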
